A study of Arabidopsis thaliana with 6 samples.

Results

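BHLH101 (AT5G04150) and PYE (POPEYE, AT3G47640) are 2 transcription factor genes of the iron-deficiency response of Arabidopsis thaliana. They were taken by locus, each through the probe set named with that gene alone, which makes them 2 of the 13356 genes that have such a probe set on the Affymetrix ATH1 array. The arrays compared seedlings of the pvip1 pvip2 double mutant (3 arrays) with seedlings of Col-0, the wild-type accession (3 arrays), all 10 days after germination on MS agar at 21 °C with 16 h of light. Col-0 plants were freed of their roots, and the mutants, whose hypocotyl is vestigial, were cut there so that both genotypes were wounded. The alleles, and how many plants went into a sample, are not given in the sources used here. PVIP proteins are PHD-finger proteins, also called OBERON, that are needed for the meristems of the plant.

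Iron-starved plants switch on a cascade of basic helix-loop-helix (bHLH) factors. Factors of group IVc, among them ILR3, bHLH34, bHLH104 and bHLH115, act together with bHLH121 and switch on the genes of group Ib, to which BHLH101 belongs. Group Ib factors are induced by lack of iron in roots and leaves, and in roots they pair with FIT, another bHLH factor, to activate iron uptake. PYE belongs to group IVb, is induced by lack of iron too, binds group IVc factors and represses genes of iron transport and chelation. BHLH101 and PYE therefore stand on the activating and the restraining side of a response that induces them both.

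Signals are given on a log2 scale, and a change is the pvip1 pvip2 mean minus the Col-0 mean of log2 signals. Calls were made in a limma fit over 13648 probe sets, where the Benjamini-Hochberg adjusted p lay under 0.05. The array labelled Col-0 replicate 1 had a log2 signal of 2.42 for OBE1, a PVIP gene under its other name, at the level of the mutant arrays (2.53 to 2.61) and not of the other Col-0 arrays (5.09 and 5.17). It goes against its label in this respect, which rests on a single probe set of low signal that was not among those tested. Col-0 replicate 3 stood apart in RNA quality, where the 3' probe set of GAPDH exceeded the 5' one by 2.31 (log2), while this gap was 0.55 to 1.08 elsewhere. In RNA of whole shoots, fewer cells of a type and less RNA per cell cannot be told apart.

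BHLH101 fell in the mutant. Its log2 signal was 4.17, 3.20 and 4.35 in pvip1 pvip2 replicates 1, 2 and 3, against 5.85 in the array labelled Col-0 replicate 1 and 5.79 and 7.40 in Col-0 replicates 2 and 3. Every mutant array lay below every Col-0 array, pvip1 pvip2 replicate 2 was the lowest, and Col-0 replicate 3 stood well above the other Col-0 arrays. The genotypes did not overlap in 39.2% of all tested probe sets, in either direction. The means were 3.91 ± 0.62 in pvip1 pvip2 and 6.35 ± 0.91 in Col-0 (SD, n = 3 each). The change was -2.44 (SE 0.48, 95% interval -3.55 to -1.33, limma adjusted p = 0.01054), which is a 5.42-fold lower signal. In the same fit 20.5% of all tested probe sets were called, and 10.2% were called lower in the mutant. Only 52 of the 13648 tested probe sets had a more negative change, and the middle 90% of all changes ran from -1.01 to 1.40. BHLH101 was chosen with earlier results of these data known, so this rank is a description and not a test.

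The fall of BHLH101 was called with any 1 array left out. Without Col-0 replicate 3, its highest array and the one with the high GAPDH ratio, the change was -1.91 (limma adjusted p = 0.01728). Leaving out the array labelled Col-0 replicate 1 gave -2.69 (limma adjusted p = 0.013). Between same-numbered arrays, the difference of pvip1 pvip2 from Col-0 was -1.68, -2.59 and -3.05 for numbers 1, 2 and 3. A mutant signal under its Col-0 partner in all 3 pairs was found in 34.4% of tested probe sets. On the first fluidics station, with 2 arrays of each genotype, it was -2.13, and on the second, with 1 of each, -3.05. The size of the change is less firm than its direction. With 16 added to every linear signal the change was -1.65, and with 64 it was -0.91, because the mutant signals lie near 3.81, the level under which probe sets were left out of the test.

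PYE did not fall with BHLH101, and a change of PYE was not shown either. Its log2 signal was 5.40, 4.98 and 5.45 in pvip1 pvip2 replicates 1, 2 and 3, against 5.25 in the array labelled Col-0 replicate 1 and 4.79 and 5.18 in Col-0 replicates 2 and 3. The genotypes overlapped, and the array numbered 2 was the lowest in each. The means were 5.27 ± 0.26 in pvip1 pvip2 and 5.07 ± 0.25 in Col-0 (SD, n = 3 each). The change was 0.20 (SE 0.21, 95% interval -0.29 to 0.69, limma adjusted p = 0.5561), so the interval holds a small fall as well as a rise. Between same-numbered arrays PYE was higher in the mutant by 0.15, 0.19 and 0.26. A mutant signal above its Col-0 partner in all 3 pairs was also found in 27.5% of tested probe sets. With the replicate number as a block PYE was still not called (limma adjusted p = 0.3808). Its difference was 0.17 on the first fluidics station and 0.26 on the second. Its change was 0.056 without Col-0 replicate 2, and 0.29 when the array labelled Col-0 replicate 1 was left out.

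**Figure D1:**
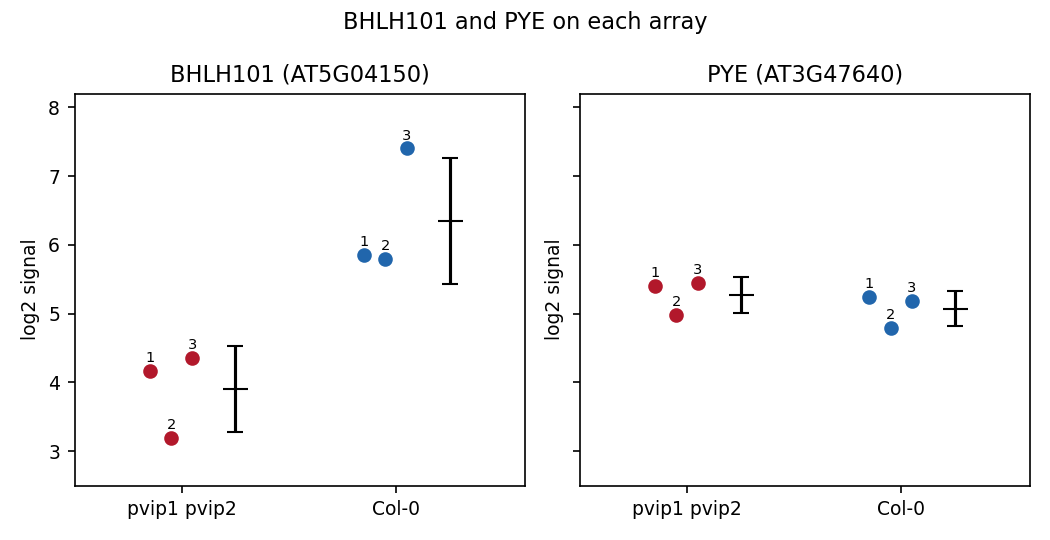
Log2 signal of BHLH101 (left panel) and PYE (right panel) on each array, with pvip1 pvip2 left of Col-0. Points are single arrays with their replicate numbers, and bars give the mean and SD of 3 arrays. BHLH101 lies at 3.20 to 4.35 in the mutant and 5.79 to 7.40 in Col-0, while the PYE values of the genotypes overlap.

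**Figure D2:**
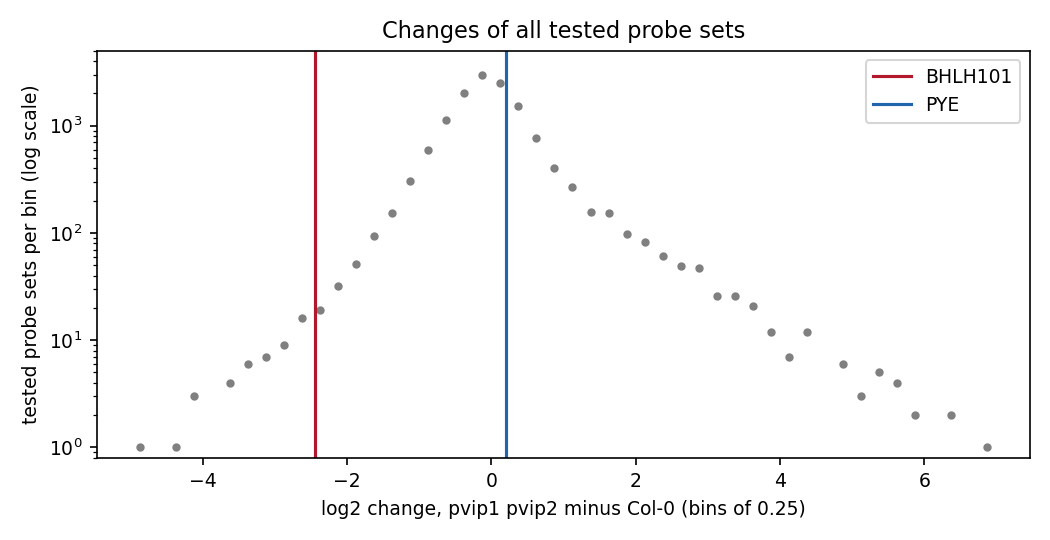
Number of tested probe sets (log scale) in bins of the log2 change between pvip1 pvip2 and Col-0, as grey points, with the changes of BHLH101 and PYE as vertical lines. BHLH101, at -2.44, lies in the far lower tail, and PYE, at 0.20, lies in the bulk of the probe sets.

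The 2 changes were set against each other within arrays. The log2 signal of BHLH101 minus that of PYE was -1.23, -1.78 and -1.09 in pvip1 pvip2 replicates 1, 2 and 3. It was 0.60 in the array labelled Col-0 replicate 1 and 1.004 and 2.22 in Col-0 replicates 2 and 3. Since the probe sets differ in brightness, the sign of these differences says nothing, and only their shift between genotypes is read. The genotypes did not overlap, and the shift was -2.64 (SE 0.53). A two-sided exact permutation test over the 3 and 3 arrays gave p = 0.1, the smallest that this test can give with so few arrays. Without Col-0 replicate 3 the shift was -2.17. The opposite signs of the 2 changes rest on PYE's 0.20, whose interval includes 0.

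**Figure D3:**
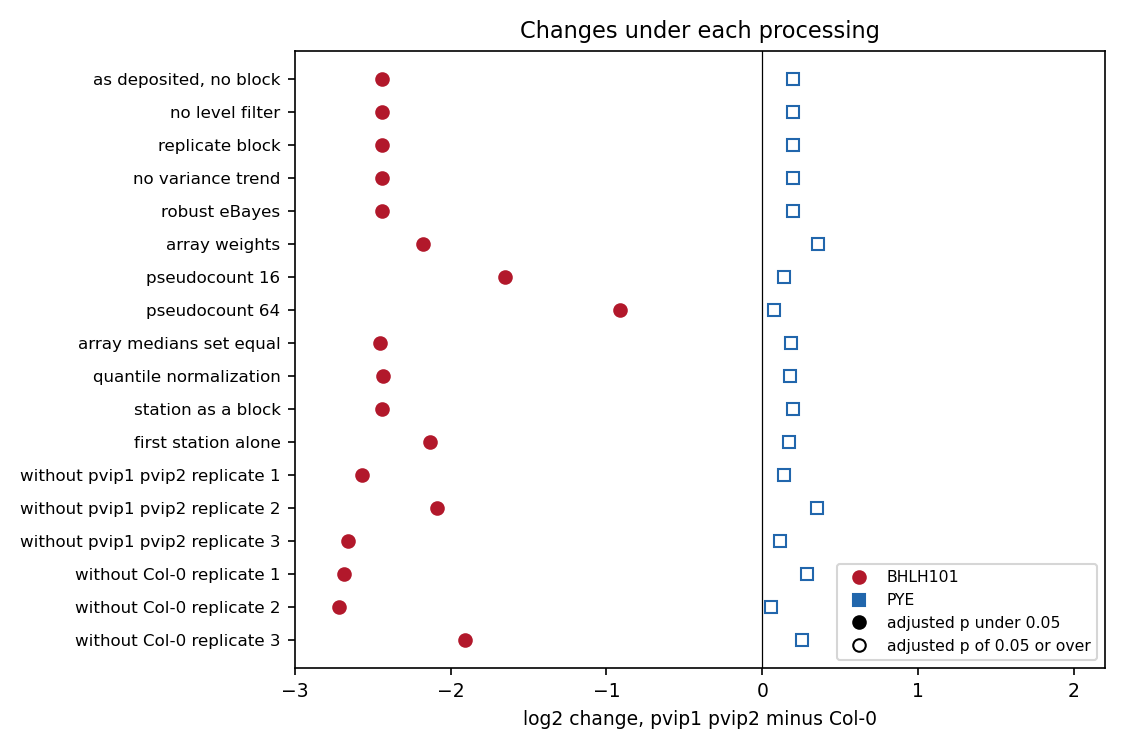
Log2 change of BHLH101 (circles) and PYE (squares) between pvip1 pvip2 and Col-0 under each way of processing, 1 per row. Filled symbols have a limma adjusted p under 0.05. BHLH101 is filled in every row and lies between -2.72 and -0.91, while PYE is open in every row and lies between 0.056 and 0.36.

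Arrays of 1 genotype also differed in both genes. Taken as deviations from the genotype mean, BHLH101 and PYE lay on the same side of it in 5 of 6 arrays. The exception was the array labelled Col-0 replicate 1, where BHLH101 deviated by -0.50 and PYE by 0.18. The largest deviations of BHLH101 were -0.71 in pvip1 pvip2 replicate 2 and 1.06 in Col-0 replicate 3, and those of PYE were -0.30 in pvip1 pvip2 replicate 2 and -0.29 in Col-0 replicate 2. The correlation of the deviations was r = 0.64 over 6 arrays, a value that 9.88% of tested probe sets reached with BHLH101. Agreement in side in at least 5 arrays was reached by 10.4%.

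Other genes listed for the iron response were compared with BHLH101 in the same way. Of 22 other tested members, 3 had deviations that correlated with those of BHLH101 above 0.8, against 3.90% of all tested probe sets, and the median was 0.13 over the 22 and 0.011 over all. These were AT5G05250 (r = 0.986), AT1G12030 (r = 0.962) and AT1G47400 (r = 0.955). AT5G05250 and AT1G12030 were listed as leaf markers of iron deficiency, and AT1G47400 was listed with the BTS ligases and IMA peptides. All genes on an array share its RNA quality and replicate number, and 6 arrays leave few independent deviations, so the values are a description. Col-0 replicate 3, the array with the high GAPDH ratio, held the largest deviation of BHLH101, at 1.06. Without Col-0 replicate 3, r over 5 arrays was 0.981, 0.991 and 0.852, which 1.06%, 0.491% and 7.30% of tested probe sets reached. The 3 genes were singled out after their values were seen. With PYE in place of BHLH101, 0 of 22 lay above 0.8, against 4.95% of all tested probe sets. The median was 0.38 over these 22 and -0.15 over all.

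Between genotypes none of those 3 genes was called lower. AT5G05250 had log2 signals of 7.78, 7.23 and 7.77 in pvip1 pvip2 and 7.54, 7.58 and 8.19 in Col-0. AT1G47400 had 8.14, 7.72 and 8.76 in pvip1 pvip2 and 7.78, 7.44 and 9.10 in Col-0. Both overlapped between the genotypes, with changes of -0.18 (limma adjusted p = 0.646) and 0.10 (limma adjusted p = 0.8955). AT1G12030 rose, with 5.71, 4.94 and 6.02 in pvip1 pvip2 and 4.08, 4.07 and 4.90 in Col-0, by 1.20 (SE 0.34, limma adjusted p = 0.03994). That call was lost without pvip1 pvip2 replicate 1 (0.09168) or 3 (0.1252), the array labelled Col-0 replicate 1 (0.09298) or Col-0 replicate 2 (0.128).

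**Figure D4:**
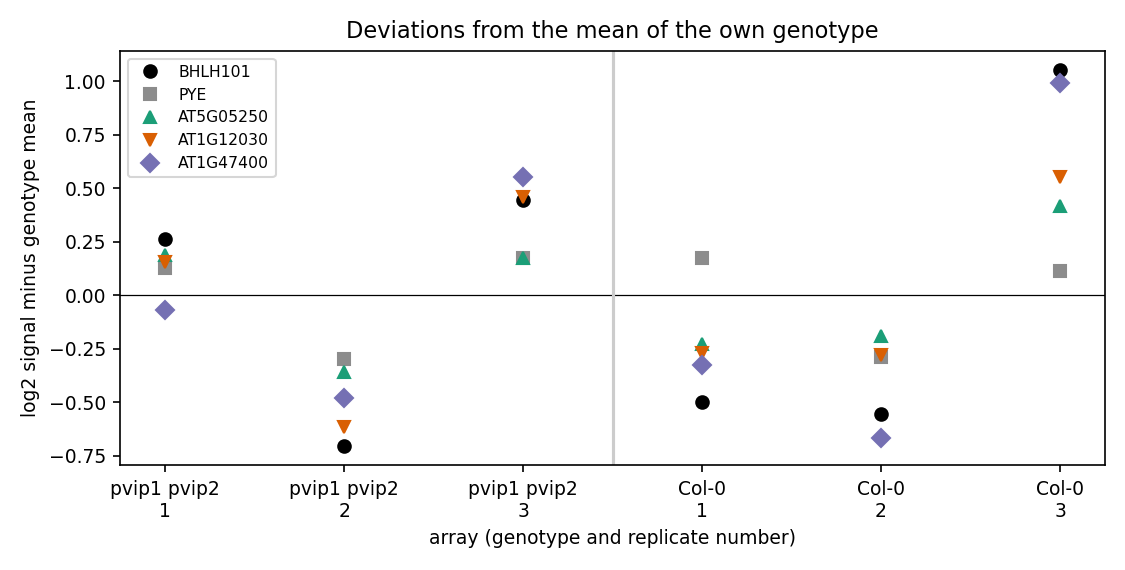
Log2 signal minus the mean of the own genotype, on each array, for BHLH101, PYE and the 3 listed iron genes whose deviations resemble those of BHLH101 most. pvip1 pvip2 arrays are left of the grey line and Col-0 arrays right of it. All 5 genes lie below their mean in pvip1 pvip2 replicate 2 and above it in Col-0 replicate 3.

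The factors that act upstream of BHLH101, or bind PYE, showed 1 change. Of the 6 tested genes in groups IVb and IVc, PYE included, bHLH115 rose and none fell, and 1 called of 6 is near the 20.5% called over all tested probe sets. bHLH115 had log2 signals of 7.27, 7.38 and 7.29 in pvip1 pvip2 and 6.61, 6.74 and 6.77 in Col-0. The genotypes did not overlap, as in 39.2% of tested probe sets, and the change was 0.61 (SE 0.15, limma adjusted p = 0.02367). It was not called when any array other than pvip1 pvip2 replicate 1 was left out, with limma adjusted p values of 0.05037 to 0.08349 and changes of 0.56 to 0.64. ILR3, bHLH121 and bHLH34 stood at -0.30, -0.35 and -0.21, and bHLH104 at 0.23. None of these 4 was called (lowest limma adjusted p = 0.2538). The other group Ib genes, BHLH38, BHLH39 and BHLH100, have no probe set named with them alone and were not analysed here, nor were FIT and the ligase gene BTS.

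Of 15 loci listed for iron acquisition only 4 were measured, and the 4 were tested. Among them 2 were called higher and 0 lower, beside 10.4% called higher over all tested probe sets. F6'H1 (AT3G13610), the hydroxylase that makes the precursor of the coumarin scopoletin, which roots release to mobilise iron, had log2 signals of 7.96, 7.96 and 8.48 in pvip1 pvip2. In Col-0 it had 3.68, 3.63 and 3.97, around the level of the filter, which it passed through its pvip1 pvip2 values. The gap was far wider than the spread within a genotype. F6'H1 rose by 4.37 (SE 0.21, limma adjusted p = 5.999e-05, or 4.676e-05 in the fit without the filter). With 64 added to the linear signals its rise was 2.16. AT1G28680, of the same list, had 7.27, 7.35 and 6.67 in pvip1 pvip2 and 6.29, 5.67 and 6.05 in Col-0, and rose by 1.09 (SE 0.25, limma adjusted p = 0.01841). BGLU42, a beta-glucosidase of coumarin release, stood at 0.083 and AT3G12900 at 0.088, and neither was called. AT1G28680 was not called without pvip1 pvip2 replicate 2 (0.06655), Col-0 replicate 2 (0.06911) or Col-0 replicate 3 (0.05101).

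Of 3 tested genes for iron transport within the plant, AT3G58060 rose, beside 10.4% called higher over all tested probe sets. It had log2 signals of 4.98, 4.35 and 4.05 in pvip1 pvip2 and 3.46, 3.20 and 3.48 in Col-0, where each Col-0 value was under the level of the filter. It passed the filter only through its pvip1 pvip2 values. The change was 1.08 (SE 0.25, limma adjusted p = 0.02143, or 0.0221 in the fit without the filter). It was 0.54 or 0.22 with 16 or 64 added to the linear signals. The call was lost without pvip1 pvip2 replicate 2 (0.05181), Col-0 replicate 2 (0.079) or Col-0 replicate 3 (0.05221). AT2G30160 and AT1G07030 stood at -0.27 and 0.078. The known targets of PYE (NAS4, ZIF1 and FRO3) and the ferritin genes were not analysed here.

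The lists of iron-sulfur cluster assembly, of storage and superoxide dismutases, and of FIT and its partners had no tested member called. The cysteine desulfurase CPNIFS and the cluster carrier HCF101 stood at -0.30 and -0.32, and the scaffold gene ISU1 at 0.28. The genotypes did not overlap in these 3, which also held for 39.2% of tested probe sets, and the limma adjusted p values were 0.2127, 0.1798 and 0.1962. CCS, the copper chaperone of superoxide dismutase, stood at -0.37, and NAI1, a bHLH factor, at 0.070. AT3G07720, a listed leaf marker of iron deficiency, stood at -0.052 and was not called. Of 5 listed genes that did not reach the level of the filter, AT1G18910 was called higher in the fit without that filter, by 0.70 (limma adjusted p = 0.04282), where 13.4% of probe sets were called and 6.85% were called higher. AT1G74770, of the same list, stood at 0.80 (limma adjusted p = 0.05996 in that fit) on 1 probe set and at 0.063 on another. AT2G22750, AT2G22760 and AT4G37850, listed with FIT, stood at -0.15, 0.23 and -0.0060 in that fit and were not called.

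Over the 9 iron lists, 28 of 100 loci had a probe set of their own and 23 were tested. Of these, 5 were called higher, 1, BHLH101, lower, and 17 neither way. Among the 5, F6'H1 and AT3G58060 passed the level filter through their pvip1 pvip2 values. The called share was 26.1%, not far from the 20.5% of all tested probe sets, and the share called higher in all tested probe sets was 10.4%. The median change was 0.078 over the iron genes and -0.050 over all tested probe sets. Among 6 tested genes whose symbol or synonym starts with bHLH, BHLH101 was the 1 called lower and bHLH115 the 1 called higher. All 6 belong to the iron lists. PYE and NAI1 are not among them, so the 6 do not stand for the bHLH family.

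**Figure D5:**
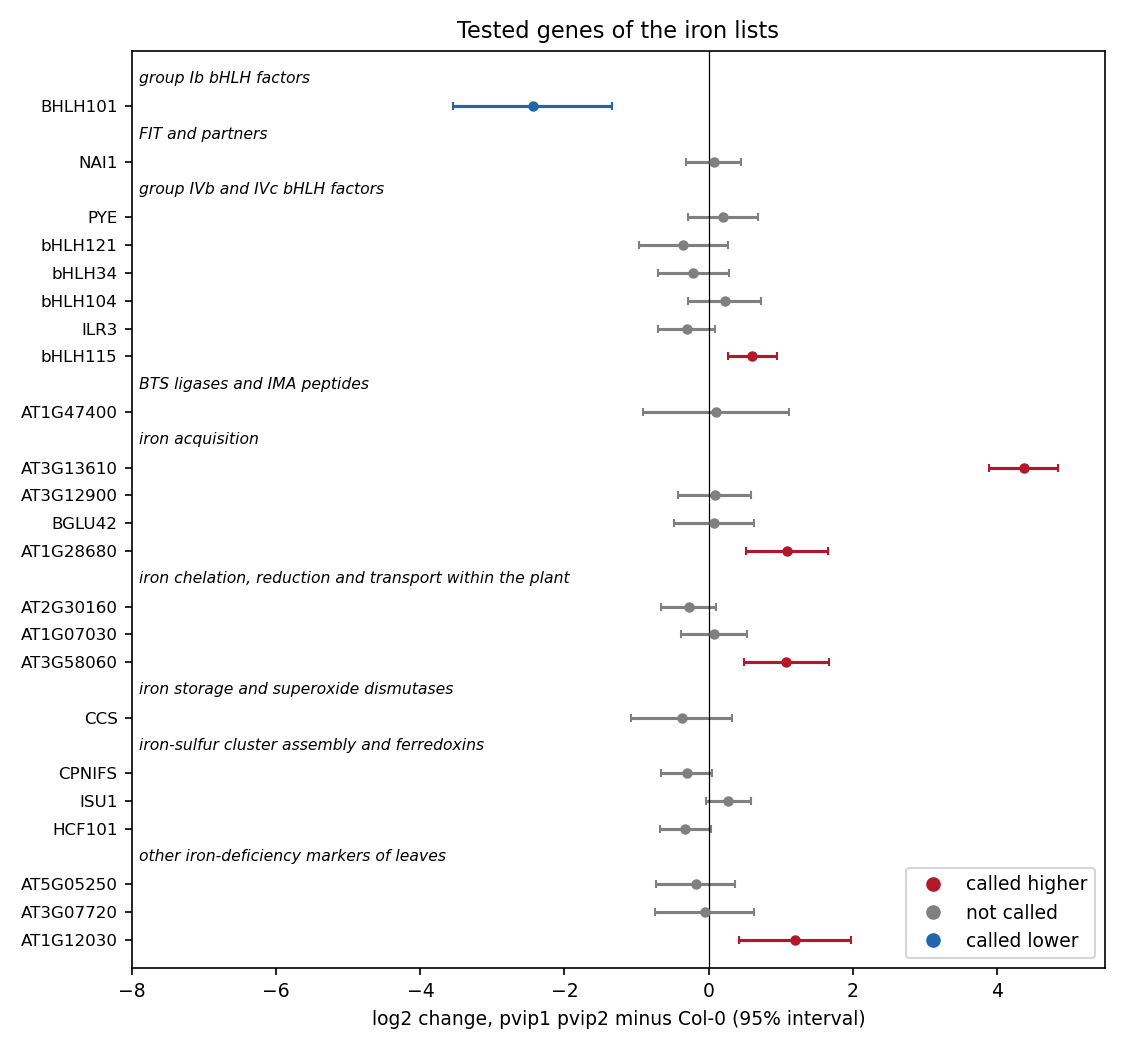
Log2 change (points) with its 95% interval (bars) between pvip1 pvip2 and Col-0 for the 23 tested genes of the iron lists, grouped by list. Red points were called higher in the mutant, the blue point, BHLH101, was called lower, and grey points were not called. F6'H1, shown as AT3G13610, lies farthest to the right at 4.37.

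Some markers of tissue moved between the genotypes beside these results. Of 9 root and root hair markers 4 were measured, and none was at 0. PYK10, a beta-glucosidase abundant in roots, rose by 1.76 (SE 0.10, limma adjusted p = 8.862e-05). Its log2 signal was 9.98 to 10.06 in Col-0, whose roots had been removed. Whether its rise stands for root tissue was not tested. The summed linear signal of the 4, most of it from PYK10, ran from 3521 to 3587 in pvip1 pvip2 and from 1034 to 1100.2 in Col-0. The other 3 (EXPA7, EXPA18 and AT4G26010) did not reach the level of the filter, and each overlapped between the genotypes. They summed to 25.6 to 54.9 in pvip1 pvip2 and 23.9 to 30.3 in Col-0. Of 5 measured leaf mesophyll markers, of 8 listed, LHCB4.2, PORB and PSAN fell (10.2% of all tested probe sets were called lower). RCA and LHCB4.1 stood at -0.30 and -0.33 and were not called. The sum of the 5 ran from 15230 to 19690 in pvip1 pvip2 and from 23657 to 25564 in Col-0. None of the 4 phloem markers had a probe set of its own. The part of tissue make-up in the changes of BHLH101, F6'H1 and the other iron genes was not tested.

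The probe sets most like BHLH101 across all 6 arrays followed both its fall and its spread within genotypes. Among 7322 other tested probe sets named with 1 gene, the highest Pearson correlations with BHLH101 were those of AT2G15880 (r = 0.996), AT2G20920 (0.994), AT5G40190 (0.993), AT1G03520 (0.992) and AT2G44850 (0.991). AT2G15880 had log2 signals of 3.66, 3.29 and 3.59 in pvip1 pvip2 and 4.29, 4.25 and 4.89 in Col-0. Like BHLH101 it was lowest in pvip1 pvip2 replicate 2 and highest in Col-0 replicate 3. The changes of the 5 genes, -0.97, -0.75, -0.45, -0.84 and -0.59, were all smaller than that of BHLH101. Since these genes were picked for their likeness to BHLH101, their falls follow from that choice and are given with no test. The mutant values of AT2G15880 all lay under 3.81, the level of the filter, which it passed through its Col-0 values.

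For PYE the closest were AT4G26710 (r = 0.977), AT5G64550 (0.974), AT5G10310 (0.969), AT3G02740 (0.966) and AT1G13810 (0.963), again over 6 arrays. AT4G26710 had log2 signals of 9.55, 9.28 and 9.56 in pvip1 pvip2 and 9.51, 9.21 and 9.48 in Col-0. It shared with PYE low values in the arrays numbered 2 of both genotypes. Their changes between the genotypes ran from 0.064 to 0.33 and follow from the choice in the same way. None of the genes named for BHLH101 or PYE belongs to the iron lists. Those lists held only 22 other tested members among the 7322 probe sets compared, so this absence says little.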

How the data were processed

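The members and all lists were chosen with earlier results of these data known, and the lists were written from background knowledge of the loci. The deposited table holds 1 log2 value per probe set and array for 22810 probe sets, 64 of them controls, which were left out. For the authors' summarisation, background correction and normalization no method is given in the sources used here. Per the submitters' processing notes GCOS was used, with no version named. Base 2 was inferred from the highest values, which on another usual base would exceed the scanner's range. Averages of linear signals after a 2% trim differed between arrays by at most 4.44%, so the deposited scale was kept.

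Probe sets were named through the platform annotation and the TAIR10.1 gene table, which served for names only. Those with a mean log2 signal of at least 3.81, the 40th percentile, were tested with limma 3.58.1 in R 4.3.3 (lmFit, eBayes with trend, two-sided), after the same code had been tested on simulated data. Precision is limited by the number of arrays, and the median SE of a change was 0.20. P-values measure the spread among samples labelled as biological replicates. Deviations from the genotype mean correlated between same-numbered arrays at r = 0.592, 0.356 and 0.155 across probe sets. All were over 0.1, so the numbers were taken as pairs and the replicate block was an alternative fit. The sample titles give replicate numbers but name no pairs, and same-numbered arrays also shared a fluidics station. The fluidics station in the array settings served as a batch, with 2 arrays of each genotype on the first and 1 on the second.

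Genes named are BHLH101, PYE, all measured genes of the iron and marker lists, called genes with a bHLH symbol, and the 5 probe sets most correlated with each of BHLH101 and PYE. Alternatives were the level filter, the replicate block, the variance model, array weights, pseudocounts, scaling, the station and each array left out. For the other iron genes, and for the deviations without Col-0 replicate 3, they were chosen after seeing the data.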

Additional observations from a re-analysis of the deposited data

How the results depend on the processing

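BHLH101 stayed lower and called in all 17 alternatives that gave it a value (-2.72 to -0.91, adjusted p 0.000942 to 0.0349). PYE stayed positive and not called in its 17 (0.056 to 0.36, adjusted p 0.2228 to 0.9065). With a filter at the 60th percentile neither passed. With the replicate block the adjusted p was 0.000942 for BHLH101 and 0.3808 for PYE, 4129 probe sets were called against 2803, and no call among the tested iron genes changed. With the station as a block the adjusted p of BHLH101 was 0.00264. On the first station alone its change was -2.13 (adjusted p = 0.03185), and the single pair on the second differed by -3.05. The stations' modules were even-numbered for every mutant array and odd-numbered for every Col-0 array, so module and genotype cannot be told apart. The shift between BHLH101 and PYE ran from -2.98 to -0.99 over 12 alternatives. The exact permutation p was 0.25 with the replicate block, 0.3333 on the first station alone and 0.1 in the others. With the block or 1 station, fewer arrangements of the labels are possible and 0.1 cannot be reached. These p values therefore do not rank the alternatives. The filter, the variance model, array weights and the station block do not enter that test.

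The number of called probe sets was 1826 with a filter at the 60th percentile, 978 on the first station alone and 1654 to 2741 with 1 array left out. It dropped by over 1.5 times without pvip1 pvip2 replicate 2 (1752) or 3 (1821) or Col-0 replicate 2 (1654). The number of called iron genes, 6 in the report, was 3 with that filter, 2 on the first station alone and 2 to 5 with 1 array left out. It was 3 without pvip1 pvip2 replicate 2, 2 without Col-0 replicate 2 and 3 without Col-0 replicate 3. F6'H1 was called in all of its 18. Each of these alternatives has fewer arrays or probe sets, and the cause of the losses was not tested.

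Small changes that were never called turned sign in some alternatives. On the first station alone NAI1 stood at -0.018, AT3G12900 at -0.089 and AT1G07030 at -0.11. With 1 array left out, AT1G47400 ran from -0.23 to 0.60, AT3G12900 from -0.019 to 0.28, BGLU42 from -0.073 to 0.30, AT1G07030 from -0.055 to 0.23, AT5G05250 from -0.29 to 0.029 and AT3G07720 from -0.33 to 0.15.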
